A study of Homo sapiens with 50 samples.

Results

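Genes named LINC followed by digits are the class that the human nomenclature committee calls long intergenic non-protein coding RNA genes, and 145 of them passed an expression filter in differentiated HepaRG cells. They were chosen from the deposited transcript table by name and by level: the FPKM of all transcripts under one LINC name were summed in each library, and a gene was kept where 5 or more of 49 libraries reached 1 FPKM. FPKM scales the number of sequenced fragments by transcript length and library size. The table held 1787 LINC names, of which 1347 were above 0 in at least 1 of the 49 libraries. The same filter over all genes and unnamed assembled loci kept 24222 features out of 79112.

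HepaRG is a human hepatic cell line that differentiates into a mixed culture of cells resembling hepatocytes and biliary epithelium. Cultures were exposed from day 8 to day 14 of culture to 1 of 3 herbicides (mesotrione, isoxaflutole, quizalofop-p-ethyl) at 0.1 uM, 10 uM or 1 mM, beside 1 Control group. All 10 groups, Control included, were kept over those days in the same test medium with DMSO and low serum, and each group held 5 libraries of total RNA depleted of ribosomal RNA. The libraries were prepared in random order and sequenced in 3 pools. The labels do not tell which library lay in which pool, so no within-pool values can be given. Mesotrione and isoxaflutole inhibit a plant enzyme of tyrosine degradation, and quizalofop-p-ethyl inhibits fatty acid synthesis in grasses. Whether the 5 libraries of a group stem from independent cultures is not stated, so each p-value reflects the variation among these libraries alone, part of which may be technical.

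One library, replicate 5 of the 10 uM quizalofop-p-ethyl group, was aberrant and was left out of the rule and of the fit. Its ribosomal RNA loci held 53.4% of the summed FPKM, against 1.01% to 3.67% in the other 49 libraries, and 13 of the 145 genes reached 1 FPKM in it, against 68 to 103. The 49 libraries had an estimated depth of 7180000 to 34240000 fragments, at which 1 fragment in a 1000-base transcript is worth 0.139 to 0.0292 FPKM. No library column was identical to another, and libraries of the same group correlated with each other at r of 0.886 to 0.931 on the log2 scale.

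LINC genes are transcribed by RNA polymerase II, and most are spliced, carry no long reading frame and are expressed at lower levels and in fewer cell types than coding genes. A few act on chromatin or on the gene beside them, some host small RNAs, and several names turned out to hide a short reading frame that makes a small membrane protein. The class therefore mixes unlike genes that share a naming rule and not a pathway. In GENCODE v29, which gave the same coordinates for 98.61% of the 198877 transcripts whose identifier it shared with the table, 111 of the 145 were lincRNA, 12 were processed transcripts, 7 antisense, 6 transcribed unprocessed pseudogenes and 6 protein-coding. RefSeq held 144 of them, 27 under another symbol and 7 as protein-coding genes. The 145 genes lay on 23 chromosomes, 24 of them overlapped the span of a coding gene, and 11 had a single exon.

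Promoters of LINC genes that passed the test with 1 mM quizalofop-p-ethyl are shown first. These genes did not all have the largest changes, since the choice was limited to genes with a matching RefSeq start. A RefSeq start lay within 50 bp of the start of the gene's most abundant transcript in the table for 53 of the 106 LINC genes with an entry in the RefSeq promoter table. From those, the 2 that fell most and the 2 that rose most with no overlap between treated and control libraries are given as the 250 bases before the start, 5′ to 3′ on the gene's strand, in GRCh38.p14. LINC01836 is at chr19:782546-782795 on the plus strand and LINC01843 at chr5:134506302-134506551 on the plus strand, and both fell. LINC00899 is at chr22:46044869-46045118 on the minus strand and LINC00116, whose RefSeq symbol is MTLN, at chr2:110212548-110212797 on the minus strand, and both rose. Capitals mark matches to any of 5 motifs searched on both strands: GCGTG (the core bound by the aryl hydrocarbon receptor), TGACNNNGC (the core bound by NRF2), TGATGNAA (bound by ATF4 with C/EBP proteins), CAAAGTCCA (bound by HNF4A) and TATAAA (the TATA box), where N is any base. Matches of different motifs were allowed to overlap.
LINC01836: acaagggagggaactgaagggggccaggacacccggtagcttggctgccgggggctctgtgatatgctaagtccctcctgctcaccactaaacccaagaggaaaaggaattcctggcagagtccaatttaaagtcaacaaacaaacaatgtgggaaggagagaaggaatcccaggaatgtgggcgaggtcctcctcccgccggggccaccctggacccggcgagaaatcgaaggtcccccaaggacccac
LINC01843: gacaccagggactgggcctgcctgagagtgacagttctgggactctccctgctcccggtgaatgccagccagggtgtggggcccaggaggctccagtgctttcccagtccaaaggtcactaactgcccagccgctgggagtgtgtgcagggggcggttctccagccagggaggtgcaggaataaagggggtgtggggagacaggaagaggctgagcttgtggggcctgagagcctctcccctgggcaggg
LINC00899: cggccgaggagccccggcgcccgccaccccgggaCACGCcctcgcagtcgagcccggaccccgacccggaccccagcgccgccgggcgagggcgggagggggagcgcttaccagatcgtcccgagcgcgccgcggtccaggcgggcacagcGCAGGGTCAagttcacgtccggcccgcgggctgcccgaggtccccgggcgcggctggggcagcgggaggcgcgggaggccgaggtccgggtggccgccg
LINC00116: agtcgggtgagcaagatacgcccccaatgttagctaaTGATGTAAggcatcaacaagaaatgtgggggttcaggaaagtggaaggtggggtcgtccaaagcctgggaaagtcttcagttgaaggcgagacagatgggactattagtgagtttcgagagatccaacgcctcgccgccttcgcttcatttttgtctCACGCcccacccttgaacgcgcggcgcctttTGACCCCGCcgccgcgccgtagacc
The shown stretches of LINC01836 and LINC01843 held none of the 5 motifs, that of LINC00899 held 1 GCGTG and 1 TGACNNNGC, and that of LINC00116 held 1 each of GCGTG, TGACNNNGC and TGATGNAA. GCGTG was present in 28.3% of the 53 promoters, against 32.2% of all 35116 promoters in the table, and in 2 of 3 genes that rose and 2 of 16 that fell. TGACNNNGC was present in 15.1% of the 53, against 10.9% of all promoters, and in all 3 that rose and 2 of 16 that fell. TGATGNAA was present in 1.89% of the 53, against 3.14% of all promoters, and in 1 of 3 that rose and 0 of 16 that fell. TATAAA was present in 11.3% of the 53, against 10.7% of all promoters, and CAAAGTCCA in 0 of the 53, against 0.325%. The motifs were picked after earlier results were known, and a match in letters is not evidence of binding.

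The LINC genes were low. Their mean over the 49 libraries had a median of 1.20 FPKM and ran from 0.177 to 23.7 FPKM, against a median of 2.91 FPKM over all 24222 features. Means were under 5 FPKM for 137 of the 145 and under 1 FPKM for 61. Of the 145, 29 reached 1 FPKM in all 49 libraries, 28 did so in 5 to 9, and 76 did so in at least 1 library of every group. No gene reached 1 FPKM in libraries of a single group only. The spread between libraries of a group, as the coefficient of variation, had a median of 33.3% over the LINC genes and 30.5% over all features. Around the threshold, the fifth highest library value was 1.004 FPKM for LINC02303, 1.006 for LINC02046 and 1.011 for LINC01748, the closest that were kept, and 0.997 for LINC01410, 0.997 for LINC01550 and 0.977 for LINC01372, the closest that were not.

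The top of the range was held by 2 small-protein genes and a microRNA host. LINC00116, which encodes mitoregulin, a small protein of the inner mitochondrial membrane, averaged 21.4 ± 2.42 FPKM in Control (SD, n = 5). LINC00969, the host gene of miR-570, averaged 17.2 ± 5.42 FPKM in Control, and it overlaps MUC20 in a duplicated stretch, so its assignment of fragments is uncertain. LINC00998, which encodes the small membrane protein SMIM30, averaged 15.9 ± 1.61 FPKM in Control. The control libraries of LINC00116 (18.4 to 24.8 FPKM) and LINC00998 (13.5 to 17.8 FPKM) did not overlap, and those of LINC00969 (11.7 to 26.2 FPKM) overlapped both. LINC00963 followed with 10.3 ± 3.23 FPKM, LINC00667 with 8.54 ± 1.65, LINC00460 with 7.12 ± 0.991 and LINC02381 with 6.73 ± 0.401 FPKM in Control. LINC01184, a divergent transcript of SLC12A2, LINC00869 and LINC01578, known as CHASERR and described as a repressor of its neighbour CHD2, closed the first 10 with 5.80 ± 1.97, 5.70 ± 1.33 and 5.37 ± 1.86 FPKM in Control. From LINC00963 down, neighbours in that order differed by less than the larger SD of the pair.

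**Figure D1:**
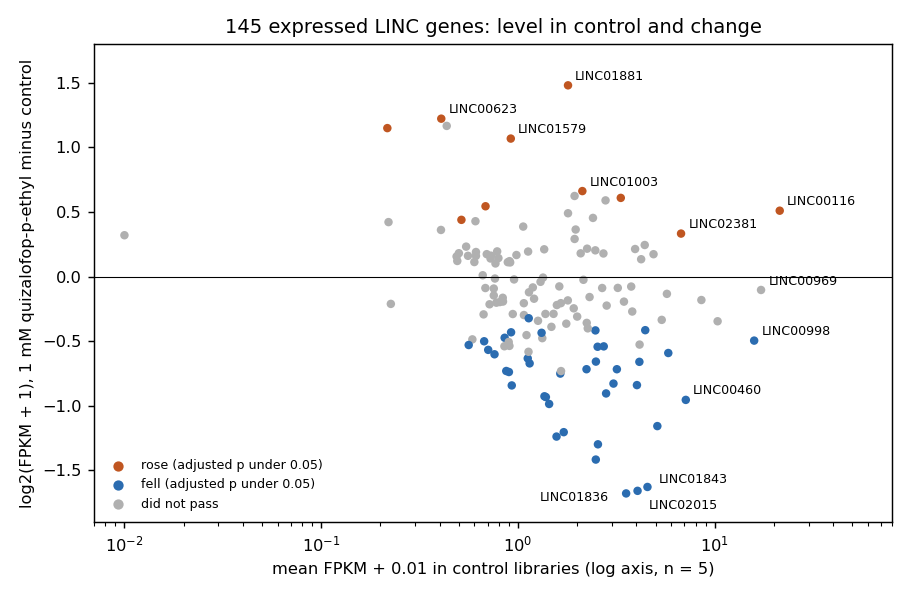
Each point is 1 of the 145 LINC genes, with its mean FPKM in Control plus 0.01 on a log axis (n = 5) and, on the vertical axis, its difference in mean log2(FPKM + 1) between 1 mM quizalofop-p-ethyl and Control (n = 5 each). Genes that fell reach -1.68 and lie at Control levels up to 15.9 FPKM, and of the 10 that rose, LINC00116 had the highest Control level, 21.4 FPKM.

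With 1 mM quizalofop-p-ethyl, 10 of the 145 LINC genes rose and 39 fell (limma, adjusted p under 0.05 over all 24222 features). The strongest falls were those of LINC01836, LINC02015 and LINC01843, and the rises with no overlap between groups were led by LINC01579. Over all features 13% rose and 19.8% fell, 32.7% in all, so the 33.8% of LINC genes called is close to the background, with 6.90% rising and 26.9% falling. Among all features with a mean under 5 FPKM, 8.49% rose and 17.0% fell, and of the 258 antisense long noncoding genes (names ending in AS and a number) under the same filter 34 rose and 45 fell. Of the LINC genes, 134 passed the filter in libraries outside the comparison, and 8 of those rose and 38 fell, 34.3% in all. Among all features that passed in those libraries, 12.8% rose and 20.3% fell, 33.1% in all. The median change of the 145 was -0.19 on the log2(FPKM + 1) scale, against -0.08 over all features. A change on this scale understates the change of genes at low FPKM.

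LINC01836, a 2-exon gene on chromosome 19 whose nearest named gene, AC006273.1, is 893 bases away, had 0.591, 0.0534, 0.934, 0.226 and 0.403 FPKM with 1 mM quizalofop-p-ethyl, against 3.70, 4.33, 3.51, 3.13 and 3.00 FPKM in Control. Every treated library lay below every control library, with a log2 change of -1.68 ± 0.15 (SE, adjusted p = 1.13e-12). LINC01843 had 0.518, 0.740, 1.70, 1.01 and 0.275 FPKM with 1 mM quizalofop-p-ethyl, against 4.22, 4.76, 4.33, 5.18 and 4.21 FPKM in Control. The groups did not overlap, with a log2 change of -1.63 ± 0.13 (adjusted p = 1.24e-13). LINC02015, whose nearest named gene is 35599 bases away, had 0.352, 0.354, 0.770, 1.13 and 0.353 FPKM with 1 mM quizalofop-p-ethyl, against 4.90, 3.34, 3.48, 2.81 and 5.70 FPKM in Control. It fell by 1.66 ± 0.19 on the log2 scale (adjusted p = 2.21e-09), again with no overlap.

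LINC02475 had 0.659, 0.284, 0.496, 0.499 and 0.118 FPKM with 1 mM quizalofop-p-ethyl, against 3.42, 2.85, 3.17, 2.01 and 1.25 FPKM in Control, a log2 change of -1.30. LINC01049 had 0.0208, 0.224, 0.421, 0.151 and 0 FPKM with 1 mM quizalofop-p-ethyl, against 1.18, 2.25, 1.26, 1.54 and 2.26 FPKM in Control, a log2 change of -1.20. In both genes the highest treated library stayed below the lowest control library. Of the locus of LINC01049, 91.7% of the named and unnamed FPKM sat in assembled transcripts without a name, and with those added it held 2.52 to 6.21 FPKM with 1 mM quizalofop-p-ethyl, against 12.9 to 20.7 FPKM in Control. LINC01980 held 2.39, 1.61, 2.45, 2.18 and 0.501 FPKM with 1 mM quizalofop-p-ethyl, against 4.46, 6.26, 5.10, 5.76 and 3.90 FPKM in Control, a log2 change of -1.16. Treated replicate 5 was its lowest library, and the groups did not overlap.

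LINC00460, described in several carcinomas and the highest gene that fell with no overlap, had 3.45, 3.53, 3.90, 2.79 and 2.34 FPKM with 1 mM quizalofop-p-ethyl, against 6.36, 8.19, 7.67, 7.55 and 5.81 FPKM in Control, a log2 change of -0.95 (adjusted p = 3.87e-07). LINC00324 had at most 0.394 FPKM with 1 mM quizalofop-p-ethyl, against at least 1.24 FPKM in Control, a log2 change of -0.99. LINC01314, a coding gene named CTXND1 in RefSeq, had at most 0.332 FPKM with 1 mM quizalofop-p-ethyl, against at least 1.12 FPKM in Control, a log2 change of -0.93 (adjusted p = 1.60e-13). LINC01767 (-0.93), LINC00540 (-0.84), LINC01419 (-0.83) and LINC00470 (-0.75), with LINC00294 (-1.42) and LINC01146 (-1.24), completed the 15 largest falls without overlap. The call of LINC00540 was lost without treated replicate 5 (adjusted p = 0.0722), and with the unnamed transcripts of its locus added its change turned to 0.029 (adjusted p = 0.903). In all, 24 of the 39 that fell and 7 of the 10 that rose had no overlap between treated and control libraries. Called or not, 33 of the 145 LINC genes had no overlap, against 5795 of all 24222 features, so separation was not particular to LINC genes.

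Some called falls involved libraries listed at 0 or an uneven Control. LINC01146, known as HISLA and described as stabilising HIF1A, was listed at 0 in all 5 libraries with 1 mM quizalofop-p-ethyl, against 0.648, 1.75, 2.52, 0.267 and 2.62 FPKM in Control. With the unnamed transcripts of its locus added, LINC01146 held 0 to 0.0704 FPKM, against 2.55 to 4.37 FPKM in Control. Its log2 change was then -2.09 (limma, adjusted p = 1.43e-13). LINC02027 was also listed at 0 in all 5 libraries with 1 mM quizalofop-p-ethyl, against 0, 0.874, 1.44, 1.87 and 0.407 FPKM in Control. LINC00294, a single-exon gene inside the span of CSTF3, had 0.0472, 0.0392, 0.0846, 0.0998 and 0.0402 FPKM with 1 mM quizalofop-p-ethyl, against 0.161, 4.26, 4.13, 0.283 and 3.54 FPKM in Control. LINC01146 and LINC00294 had no overlap between groups, and LINC02027 shared the value 0 with 1 control library. The calls of LINC01146 and LINC02027 were kept under every alternative, though unnamed transcripts could not be added for LINC02027. The control libraries of LINC00294 fell into a low pair and a high trio, and similar high values stood in single libraries of other groups, such as 4.25 and 3.94 FPKM with 10 uM mesotrione. Its call (adjusted p = 0.0209) was lost without control replicate 2 (0.075), 3 (0.0713) or 5 (0.0631).

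LINC01579 rose most among genes with no overlap, with 1.89, 3.31, 3.92, 2.14 and 4.18 FPKM with 1 mM quizalofop-p-ethyl, against 0.720, 1.01, 0.994, 0.599 and 1.23 FPKM in Control. Its log2 change was 1.07 ± 0.18 (adjusted p = 5.12e-06). LINC01003 had 2.96, 4.75, 3.50, 3.63 and 5.01 FPKM with 1 mM quizalofop-p-ethyl, against 2.00, 2.43, 2.19, 1.73 and 2.21 FPKM in Control, a log2 change of 0.66 (adjusted p = 1.30e-05). Both were above every control library in all 5 treated ones. LINC01128 had 5.73, 5.04, 5.75, 4.93 and 6.03 FPKM with 1 mM quizalofop-p-ethyl, against 3.42, 3.997, 3.46, 1.95 and 3.77 FPKM in Control, a log2 change of 0.61. LINC00899 (0.54, adjusted p = 0.0291), LINC01376 (0.44) and LINC02381 (0.33) also rose without overlap. The call of LINC00899 was lost without control replicate 1 or 3 or treated replicate 4 or 5, with a pseudocount of 0.1 (0.169), with no filter (0.0545) and with all 50 libraries (0.0536). That of LINC01376 (adjusted p = 0.0148) was lost without control replicate 3 (0.0605). That of LINC02381 was lost with the 2 groups alone (0.0602), and those of LINC02381 (0.459) and LINC01128 (0.0591) with all 50 libraries.

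The larger rises were uneven between libraries. LINC01881, a transcribed unprocessed pseudogene near the end of chromosome 2 whose fragments may be shared with copies, had 12.5, 5.71, 10.3, 6.70 and 2.16 FPKM with 1 mM quizalofop-p-ethyl, against 2.32, 2.70, 1.69, 1.05 and 1.16 FPKM in Control, a log2 change of 1.48 (adjusted p = 6.98e-06). LINC00623 had 4.29, 1.89, 0, 2.86 and 4.01 FPKM with 1 mM quizalofop-p-ethyl, against 0.275, 0.0503, 0.0339, 1.25 and 0.380 FPKM in Control, and its call (adjusted p = 0.0141) was lost without treated replicate 1 (0.0555) or 5 (0.0531), with a pseudocount of 0.1 (0.0855) and with the 2 groups alone (0.0617). LINC00630 on the X chromosome had 0.181, 2.19, 1.38, 2.62 and 3.14 FPKM with 1 mM quizalofop-p-ethyl, against 0.186, 0.273, 0.326, 0.0321 and 0.216 FPKM in Control. In each of these 3 genes 1 treated library lay below the highest control library.

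**Figure D2:**
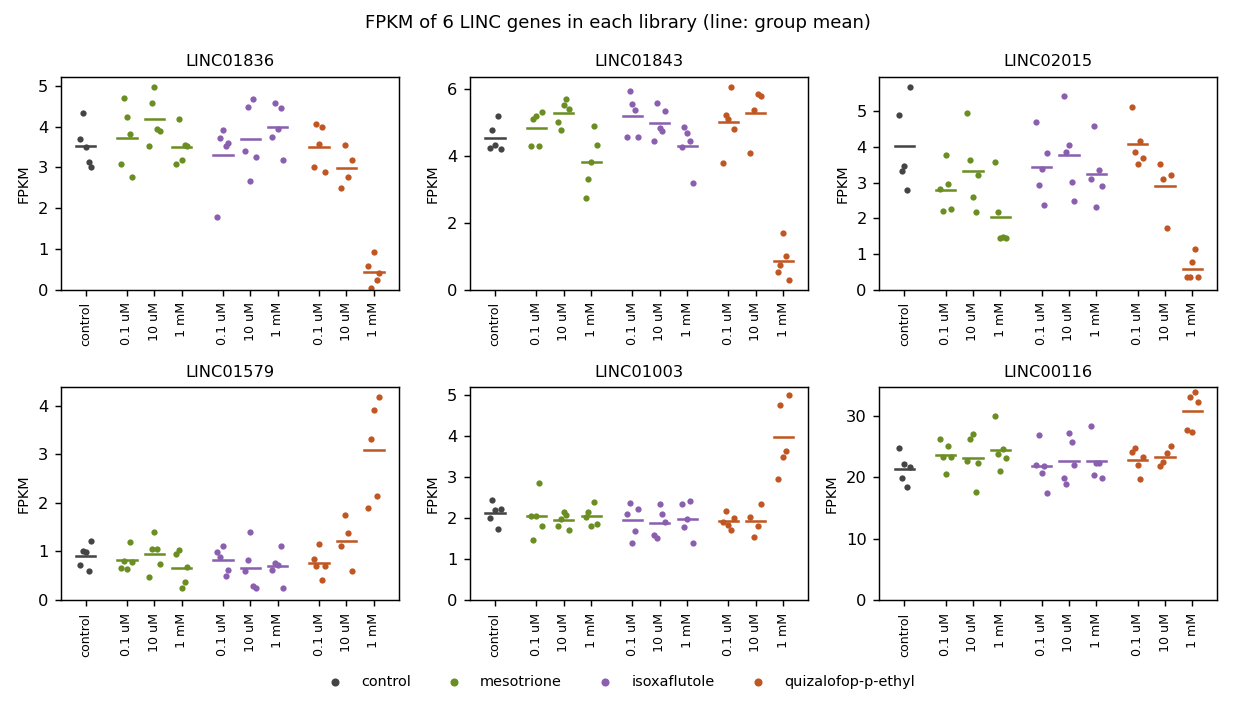
FPKM of LINC01836, LINC01843, LINC02015, LINC01579, LINC01003 and LINC00116 in each library, with Control at the left and the 3 concentrations of each compound low to high; points are libraries and lines are group means (n = 5, and 4 for quizalofop-p-ethyl at 10 uM). All 6 genes were picked from those without overlap between 1 mM quizalofop-p-ethyl and Control, so the gap between these groups follows from the choice. LINC01836 held 0.0534 to 0.934 FPKM with 1 mM quizalofop-p-ethyl, against 3.00 to 4.33 FPKM in Control.

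Small-protein genes under LINC names moved in both directions. Of the 7 such names listed, 3 passed the filter. LINC00116, which encodes mitoregulin, had 27.6, 33.1, 27.4, 33.8 and 32.3 FPKM with 1 mM quizalofop-p-ethyl, against 24.8, 19.9, 22.2, 18.4 and 21.6 FPKM in Control. It rose by 0.51 ± 0.11 on the log2 scale (adjusted p = 0.000283) with no overlap, and its call was lost when the aberrant library was put back into the fit (0.453). LINC00998, which encodes SMIM30, had 10.4, 13.7, 11.1, 11.8 and 8.18 FPKM with 1 mM quizalofop-p-ethyl, against 13.5, 15.2, 17.8, 16.6 and 16.3 FPKM in Control. It fell by 0.50 (adjusted p = 0.0222), with an overlap of 1 library from each group, and its call was lost without control replicate 3 (0.0544) or treated replicate 5 (0.0890) and with all 50 libraries (0.230). LINC00467, which is reported to encode a small mitochondrial peptide, fell by 0.42 (adjusted p = 0.00604), also with overlap, and its call was lost with all 50 libraries (0.109).

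LINC genes described as liver-enriched were sparse. Of 8 such names, LINC00261 and LINC00844 passed the filter. LINC00844 had 0, 0.171, 0.0725, 0.0221 and 0 FPKM with 1 mM quizalofop-p-ethyl, against 0.155, 0.997, 2.12, 0.267 and 0.771 FPKM in Control. It fell with overlap (adjusted p = 0.0183), and its call was lost without control replicate 3 (0.106). LINC00261, which lies beside the endoderm factor FOXA2, had 0, 0, 0, 0.0580 and 0 FPKM with 1 mM quizalofop-p-ethyl, against 0.366, 0, 0.0181, 0.269 and 2.23 FPKM in Control, and did not pass the test (adjusted p = 0.597). In its locus 85.9% of the FPKM sat in unnamed transcripts. LINC genes described in stress signalling or proliferation did not pass either: LINC00511 changed by 0.20 (adjusted p = 0.416), LINC00963 by -0.35 (0.132) and LINC01133 by -0.25 (0.193) on the log2 scale, 3 of 8 such names that passed the filter.

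Markers of hepatocytes, biliary cells, mesenchymal cells and leukocytes were read in the same libraries. The summed FPKM of 10 hepatocyte markers was 5454, 1500, 2550, 2119 and 228.6 in the 5 libraries with 1 mM quizalofop-p-ethyl, against 20080 to 23630 in Control, and all 10 fell. Those of 8 biliary markers summed to 85.6 to 186 FPKM with 1 mM quizalofop-p-ethyl, against 636 to 727 FPKM in Control, with 4 of the 6 tested lower. EPCAM was under 0.1 FPKM in every library of either group and CFTR in every treated library. Those of 8 mesenchymal markers summed to 14.9 to 26.6 FPKM with 1 mM quizalofop-p-ethyl, against 52.4 to 67.96 FPKM in Control, with 1 of the 6 tested higher, 4 lower and COL1A2 under 0.1 FPKM in every library of either group. Those of 6 leukocyte markers summed to 2.73 to 15.6 FPKM with 1 mM quizalofop-p-ethyl, against 8.80 to 36.3 FPKM in Control, with 2 of the 3 tested lower and PTPRC and CD3E under 0.1 FPKM in every library of either group. Treated replicate 5, lowest in hepatocyte markers, was the lowest treated library for 18 of the 35 LINC genes that fell and had a single lowest one, LINC01980, LINC00460 and LINC00998 among them. Treated replicates 1 to 4 were lowest for 5, 8, 0 and 4 of the 35, though replicate 1 was highest in hepatocyte markers. Without replicate 5, 33 LINC genes fell, against 39, and over all features 4091 fell, against 4784. Other libraries left out gave similar LINC counts. Without treated replicates 1 to 4 in turn, 34, 38, 40 and 38 LINC genes fell. Without control replicates 1 to 5 in turn, 40, 31, 34, 39 and 33 fell. Over all features these fits gave 4261 to 4729 falls. The lowest library was not counted over all features. In bulk RNA, fewer cells of a type and less RNA per cell cannot be told apart, and the part of the marker changes in the LINC results was not tested.

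Genes beside the LINC genes were compared in the same fit, since some LINC transcripts share a promoter region or a domain with a neighbour. A tested coding gene lay within 100000 bases of 92 of the 145, and of 23 of the 49 called. Of the 15 that fell and had such a neighbour, the neighbour fell in 6, rose in 0 and did not pass in 9. Of the 8 that rose and had one, the neighbour fell in 2, rose in 0 and did not pass in 6. Beside the 69 LINC genes that were not called, 14 neighbours fell and 11 rose.

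Pairs that fell together were LINC01767 and PLPP3, a lipid phosphate phosphatase 78781 bases away (log2 changes -0.93 and -1.37), LINC00887 and CPN2, a subunit of a plasma carboxypeptidase made by the liver (-0.60 and -1.45), and LINC01314 and FAH, the last enzyme of tyrosine degradation (-0.93 and -0.28). LINC01184 and SLC12A2, whose starts are 594 bases apart, changed by -0.59 and -0.55, LINC01232 and TM9SF2 by -0.47 and -0.78, and LINC01336 and GCNT4 by -0.50 and -0.59. RefSeq lists LINC01336 under the symbol GCNT4, so that pair may be a single gene. The call of LINC01184 (adjusted p = 0.0328) was lost without control replicate 2, 4 or 5 or treated replicate 1, 2 or 5, and with median-ratio scaling (0.0556), no filter (0.0647), the 2 groups alone (0.0872) or all 50 libraries (0.194). With the unnamed transcripts of its locus added, LINC01184 changed by -0.095 (adjusted p = 0.579), so its fall holds for the named transcripts only. The call of LINC01232 (0.0153) was lost without control replicate 3 or treated replicate 2 and with the 2 groups alone (0.0610). The opposite pattern was seen at LINC01376 and OSR1, a zinc finger transcription factor 4737 bases away, with log2 changes of 0.44 and -1.28, and at LINC00630 and BHLHB9 with 1.15 and -0.73. The genes nearest to the strongest falls did not pass: PTBP1 beside LINC01836 changed by 0.18 (adjusted p = 0.0724), JADE2 beside LINC01843 by -0.53 (0.159) and CTC1 beside LINC00324 by -0.23 (0.405).

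**Figure D3:**
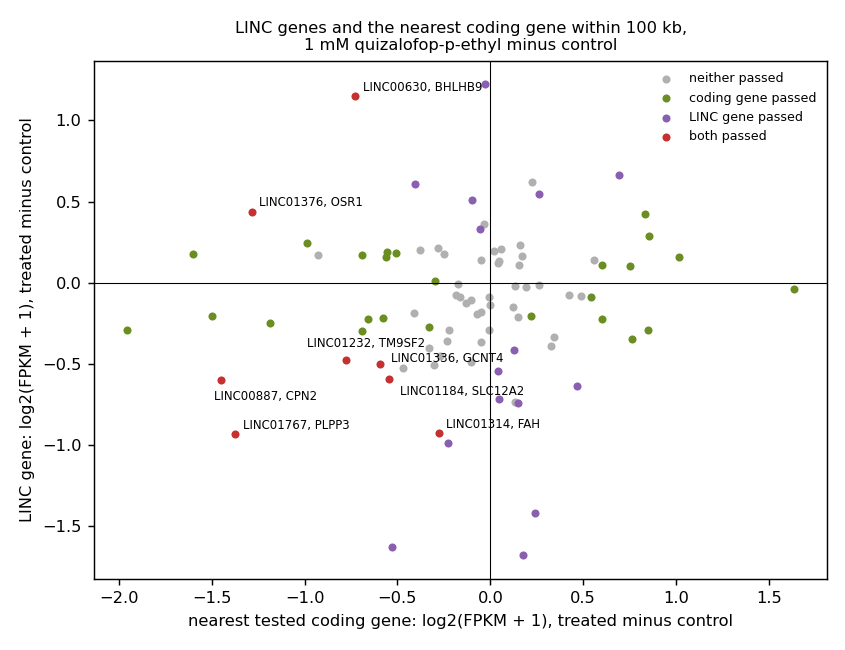
Each point is 1 of the 92 LINC genes with a tested coding gene within 100000 bases, with the log2(FPKM + 1) difference, 1 mM quizalofop-p-ethyl minus Control, of the coding gene on the horizontal axis and of the LINC gene on the vertical axis (n = 5 each). In the 8 pairs where both passed the test the coding gene lay below 0, and the LINC gene lay below 0 in 6 of them and above 0 in LINC01376 and LINC00630.

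Mesotrione and isoxaflutole at 1 mM moved few LINC genes. With 1 mM isoxaflutole 0 rose and 3 fell, where 1.16% of all features rose and 1.26% fell, 2.42% in all. LINC01049 had 0.606, 0.984, 0.971, 0.448 and 0.441 FPKM with 1 mM isoxaflutole, against 1.18, 2.25, 1.26, 1.54 and 2.26 FPKM in Control. Its groups did not overlap, and it fell by 0.67 ± 0.15 on the log2 scale (adjusted p = 0.00558). Without overlap LINC00470 also fell, to 0.518 to 0.888 FPKM with 1 mM isoxaflutole, against 1.24 to 2.12 FPKM in Control (log2 change -0.56, adjusted p = 0.0229). LINC01314 fell to 0.687 to 1.09 FPKM with 1 mM isoxaflutole, against 1.12 to 1.70 FPKM in Control (log2 change -0.28, adjusted p = 0.0333). With the unnamed transcripts of its locus added, the change of LINC01049 was -0.36 (adjusted p = 0.111). The call of LINC00470 was lost without treated replicate 2 or 4 or control replicate 4 or 5 and with no filter (0.0540), and that of LINC01314 without treated replicate 2, 3 or 5 or control replicate 1, 4 or 5, with a pseudocount of 0.1 (0.0794) and with no filter (0.0670). With the 2 groups alone (0.1 for LINC01049, 0.0826 for LINC00470 and 0.322 for LINC01314) and with all 50 libraries, all 3 calls were lost. The median change over the 145 was -0.11 with 1 mM isoxaflutole, against -0.01 over all features.

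With 1 mM mesotrione 0 LINC genes rose and 1 fell, where 0.178% of all features rose and 0.702% fell, 0.879% in all. LINC02015 had 3.58, 2.18, 1.45, 1.48 and 1.46 FPKM with 1 mM mesotrione, against 4.90, 3.34, 3.48, 2.81 and 5.70 FPKM in Control, a log2 change of -0.75 ± 0.19 (adjusted p = 0.0450). Treated replicate 1 lay within the control range, and the call was lost without any one of control replicates 1, 2, 3 and 5 or treated replicates 2, 3, 4 and 5, with adjusted p of 0.0542 to 0.173, and under 5 of the 7 other alternatives. LINC01314 averaged 0.925 ± 0.169 FPKM with 1 mM mesotrione, against 1.35 ± 0.228 FPKM in Control (adjusted p = 0.0537, not called). The median change over the 145 was -0.07, against -0.01 over all features. The summed hepatocyte markers were 10320 to 19190 FPKM with 1 mM isoxaflutole and 12670 to 20880 FPKM with 1 mM mesotrione, against 20080 to 23630 FPKM in Control, with 1 of 10 markers lower in each. The biliary markers summed to 484 to 611 FPKM with 1 mM isoxaflutole and 425 to 563 FPKM with 1 mM mesotrione, against 636 to 727 FPKM in Control, where 1 of the 6 tested was higher and 1 lower with isoxaflutole and 2 were lower with mesotrione. The mesenchymal markers summed to 20.5 to 28.6 FPKM with 1 mM isoxaflutole (3 of 6 tested lower) and 21.1 to 33.4 FPKM with 1 mM mesotrione (2 lower), against 52.4 to 67.96 FPKM in Control. The leukocyte markers summed to 11.8 to 34.7 FPKM with 1 mM isoxaflutole (0 of 3 tested changed) and 7.89 to 21.6 FPKM with 1 mM mesotrione (1 lower), against 8.80 to 36.3 FPKM in Control. EPCAM, COL1A2, PTPRC, CD163 and CD3E were under 0.1 FPKM in every library of these groups. The part of these markers in the LINC results was not tested.

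**Figure D4:**
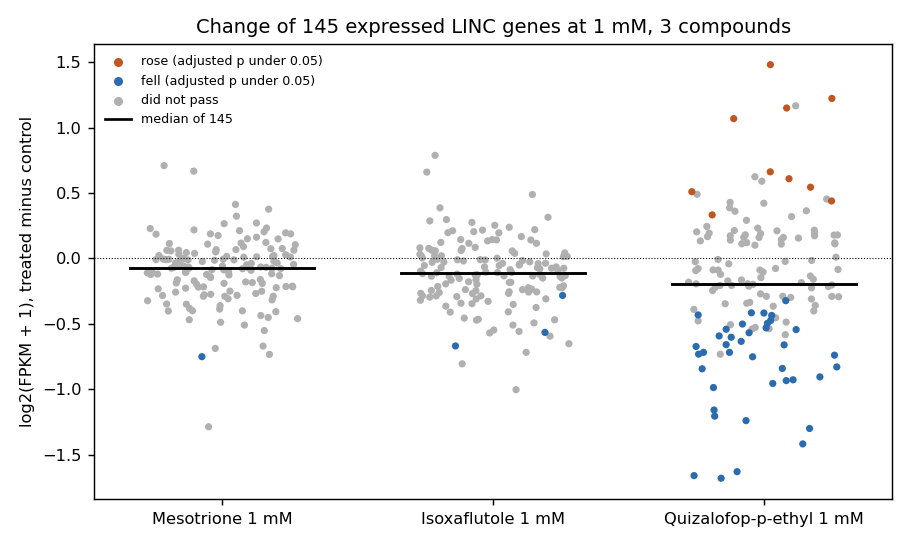
Difference in mean log2(FPKM + 1) between 1 mM of each compound and Control for the 145 LINC genes (points, n = 5 libraries per group, shared controls), with the median as a line. The medians were -0.07 for mesotrione, -0.11 for isoxaflutole and -0.19 for quizalofop-p-ethyl, and the calls numbered 1, 3 and 49.

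The compounds were also compared with each other at 1 mM, a contrast without Control. Quizalofop-p-ethyl against mesotrione gave 12 LINC genes higher and 30 lower, where 12.6% of all features were higher and 17.6% lower, 30.2% in all. Quizalofop-p-ethyl against isoxaflutole gave 11 higher and 27 lower, where 11.7% of all features were higher and 18.1% lower, 29.7% in all. LINC01836 had 0.0534 to 0.934 FPKM with quizalofop-p-ethyl, against 3.07 to 4.18 FPKM with mesotrione (log2 change -1.67, adjusted p = 1.60e-12) and 3.17 to 4.57 FPKM with isoxaflutole (-1.81, adjusted p = 1.49e-13). LINC01843 changed by -1.41 against mesotrione and by -1.55 against isoxaflutole. LINC01980 changed by -1.14 against mesotrione and by -1.02 against isoxaflutole. LINC02475 changed by -0.95 against mesotrione, and LINC02015 by -1.42 and LINC00543 by -0.85 against isoxaflutole, all without overlap. LINC01146, listed at 0 in all 5 libraries with quizalofop-p-ethyl, had 0.105, 3.64, 1.62, 3.08 and 0.127 FPKM with mesotrione, and its call (adjusted p = 0.0137) was lost without mesotrione replicate 2 (0.0697) or 4 (0.0601).

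On the higher side LINC01579 led both contrasts, with 1.89 to 4.18 FPKM with quizalofop-p-ethyl, against 0.252 to 1.04 FPKM with mesotrione (log2 change 1.29, adjusted p = 1.51e-07) and 0.239 to 1.12 FPKM with isoxaflutole (1.25, adjusted p = 2.76e-07). Against mesotrione LINC01003 rose by 0.70 and LINC01376 by 0.51, and against isoxaflutole by 0.73 and 0.49. LINC00472 (0.61) and LINC00638 (0.28) were higher than with mesotrione, and LINC00899 (0.68) and LINC01128 (0.59) higher than with isoxaflutole, without overlap. LINC00116 was higher than with mesotrione by 0.32 (adjusted p = 0.0236) and than with isoxaflutole by 0.43 (adjusted p = 0.00205). Against mesotrione the call of LINC00116 was lost without mesotrione replicate 3 or 5 or quizalofop-p-ethyl replicate 2, 4 or 5, and that of LINC00638 without mesotrione replicate 1 or 5 or quizalofop-p-ethyl replicate 1 or 4. Both were also lost with the 2 groups alone (0.0505 and 0.105) and with all 50 libraries (0.685 and 0.0857). Against isoxaflutole, all 50 libraries ended the calls of LINC00116 (0.566) and LINC01128 (0.0788), and a pseudocount of 0.1 that of LINC00899 (0.0603).

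Isoxaflutole against mesotrione gave 0 LINC genes past the threshold in limma, where 0.256% of all features were called (0.231% higher and 0.0248% lower). At an unadjusted p under 0.05 there were 9 of the 145, against 1628 of all 24222 features. The genes called with only one of these compounds against Control were not shown to differ between the compounds: LINC02015 differed by 0.52 ± 0.19 (adjusted p = 0.499) and LINC01049 by -0.38 ± 0.15 (adjusted p = 0.545), isoxaflutole minus mesotrione.

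At 0.1 uM and 10 uM 0 LINC genes passed the threshold in limma with any compound. At an unadjusted p under 0.05 there were 6 and 8 of the 145 with mesotrione at 0.1 uM and 10 uM, 8 and 4 with isoxaflutole, and 2 and 5 with quizalofop-p-ethyl. Of all 24222 features, 1021 and 735 were under it with mesotrione, 1212 and 1070 with isoxaflutole, and 901 and 1161 with quizalofop-p-ethyl. Of all features 0.0% were called in 5 of these 6 comparisons and 0.00826% with 10 uM quizalofop-p-ethyl, 0.00413% in each direction. The genes that fell most at 1 mM stood near Control at 10 uM quizalofop-p-ethyl: LINC01836 averaged 3.00 ± 0.465 FPKM (n = 4), against 3.54 ± 0.528 FPKM in Control (n = 5), and LINC01843 averaged 5.27 ± 0.816 FPKM, against 4.54 ± 0.423 FPKM in Control. LINC01579 averaged 1.21 ± 0.480 FPKM at 10 uM quizalofop-p-ethyl, against 0.909 ± 0.250 FPKM in Control.

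**Figure D5:**
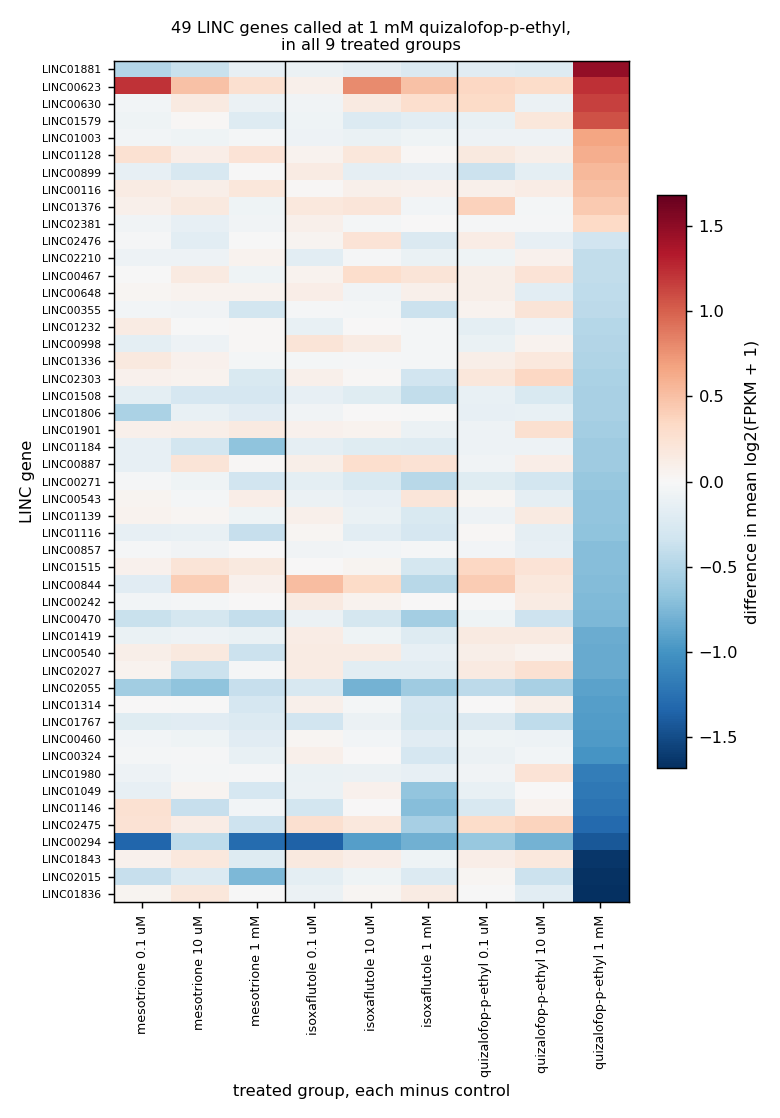
Rows are the 49 LINC genes called with 1 mM quizalofop-p-ethyl, ordered by that change, and columns the 9 treated groups, each by its difference in mean log2(FPKM + 1) from the shared Control (colour, n = 5 libraries per group, 4 for quizalofop-p-ethyl at 10 uM). The last column chose the rows, and the row of LINC00294, 3 of whose 5 control libraries held 3.54 to 4.26 FPKM, is below 0 in every column.

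Over all 9 treated groups and Control together, 42 of the 145 differed (limma moderated F, adjusted p under 0.05), where 29.2% of all features did. Of these, 37 were among the 49 called with 1 mM quizalofop-p-ethyl. The other 5 were LINC00847, LINC01270, LINC00869, LINC01060 and LINC00472. LINC01060 averaged 4.47 ± 0.870 FPKM with 1 mM quizalofop-p-ethyl and 1.44 ± 0.979 FPKM with 0.1 uM isoxaflutole, its highest and lowest groups. LINC00847 averaged 2.53 ± 1.43 FPKM with 10 uM isoxaflutole, its lowest group, against 4.22 ± 0.521 FPKM in Control. LINC00869 averaged 3.46 ± 2.57 FPKM with 10 uM mesotrione, where single libraries ran from 0.0901 to 7.15 FPKM, against 5.70 ± 1.33 FPKM in Control.

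Named and unnamed transcripts of a locus gave different pictures for some LINC genes. Assembled transcripts without a name lay in the locus of 79 of the 145 and held over 50% of its FPKM in 40. Of those 40, 2 rose and 9 fell with 1 mM quizalofop-p-ethyl, and of the other 105, 8 rose and 30 fell. The unnamed transcripts were added for 65 of the 79. In the other 14 loci, which hold more than 1 named gene, they could not be assigned and the values stayed as they were, LINC00261, LINC00630 (88.5% unnamed), LINC01881 and LINC02027 among them. With the unnamed transcripts added where possible, 58 of the 145 genes were called, 45 of them among the 49. Of the 58, 15 rose and 43 fell. That fit called 8507 of 19614 features, against 7926 of 24222 without the addition, so calls were more frequent over all features too. LINC00704, known as MANCR, was among the 13 gained and held 0.265 to 0.735 FPKM with 1 mM quizalofop-p-ethyl, against 0.929 to 2.24 FPKM in Control (log2 change -0.83, adjusted p = 0.000135). Gained with a rise were LINC00662 (0.99), LINC02434 (0.93), LINC01060 (0.52), LINC01138 (0.39) and LINC00339 (0.34). Gained with a fall were also LINC00574 (-0.94), LINC02253 (-0.67), LINC02438 (-0.62), LINC00659 (-0.57), LINC01786 (-0.51), LINC00674 (-0.43) and LINC00491 (-0.36). From its named transcripts LINC00674 had changed by 0.16 and was not called. Lost were LINC00540, LINC01184, LINC02476 (log2 change -0.17, adjusted p = 0.450) and LINC02055 (0.30, adjusted p = 0.132, against -0.90 from its named transcripts). For LINC00540, the named transcripts held 0.464 to 3.21 FPKM with 1 mM quizalofop-p-ethyl, against 3.56 to 4.57 FPKM in Control, and with the unnamed ones 6.40 to 15.5 FPKM, against 6.42 to 11.1 FPKM in Control.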

How the data were processed

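The authors deposited 1 table of transcript FPKM values for 50 libraries, 239290 transcripts with coordinates, of which 40117 were assembled without a gene name. StringTie, HISAT, HISAT2 and the build GRCh38 are listed in the submitters' processing notes without versions or roles. The labels' protocols describe a stranded kit, and the sources used here do not give whether quantification used strand. In 20 columns of the deposited FPKM, recorded as another unit because of values just below 0, 24 such values were set to 0. Transcript FPKM were summed per gene name, and unnamed transcripts per locus. Depth is not in the table and was estimated from the FPKM step of 1 fragment in 16115 single-exon transcripts of 300 to 1500 bases. Scaling to FPKM leaves shallow libraries with a larger error.

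Groups were tested by limma 3.58.1 (R 4.3.3) on log2(FPKM + 1), with 1 mean per group over 49 libraries, trend and robust variance moderation, and Benjamini-Hochberg adjustment over all 24222 features at 0.05. The fit was tried on simulated data with independent normal noise and changes placed only in features above about 1 FPKM in Control. That trial does not cover genes below this level. Members, gene lists, markers and tests were chosen with earlier results of these data known. Genes named were the 10 highest in Control, the 15 largest rises and falls without overlap between groups at 1 mM quizalofop-p-ethyl, every call with the other compounds, the 5 largest each way in direct comparisons, those around the threshold and those of 3 lists; the uneven rises, the F-test genes, and the genes moved by unnamed transcripts were named after their values were seen. Alternatives were a pseudocount of 0.1, no filter on low values, median-ratio scaling, the 2 groups alone, a block for the runs of sample numbers, all 50 libraries, unnamed transcripts added, and each library left out. Promoters came from RefSeq (GRCh38.p14). Python 3.11.15, pandas 2.3.3, numpy 2.4.6 and matplotlib 3.10.9 were used.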

Additional observations from a re-analysis of the deposited data

Results flagged for a closer look

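Named LINC genes were screened in 63 sets of 5 libraries, the treated and Control groups of the comparison that named them. In 2 sets a library lay far from the rest, where chance flags about 1 in 20. The Control sets of LINC02015, LINC01049, LINC00470 and LINC01314, named with quizalofop-p-ethyl and another compound, were counted in each comparison. LINC00623 had 1.25 FPKM in Control replicate 4, against 0.0339 to 0.380 FPKM in the other 4 control libraries. LINC01128 had 1.95 FPKM in the same Control replicate 4, against 3.42 to 3.997 FPKM in the other 4.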

How the results depend on the processing

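Of the 32 named changes at 1 mM, 17 kept direction and call under every alternative run. In 1, LINC00540, the direction reversed with the unnamed transcripts of its locus added (0.029, against -0.84). LINC02055, called with 1 mM quizalofop-p-ethyl but not among the 32, also reversed. It fell from its named transcripts and changed by 0.30 with the unnamed ones added. The cause of these reversals was not tested. With 1 mM quizalofop-p-ethyl the count of 49 ran from 36 with all 50 libraries to 58 with unnamed transcripts added, and from 42 to 50 over the fits without 1 library; 28 genes (4 higher, 24 lower) were called in all 18 fits. Adding unnamed transcripts left 14 genes as they were, 3 of them called (LINC00630, LINC01881 and LINC02027), so that setting is no check of these. With 1 mM mesotrione the count of 1 became 0 with the pseudocount of 0.1, no filter, median-ratio scaling, the 2 groups alone or all 50 libraries, 2 with the replicate block and 3 with unnamed transcripts, and 0 to 1 without 1 library. With 1 mM isoxaflutole the count of 3 became 1 with no filter, 0 with the 2 groups alone or all 50 libraries, and 1 to 3 without 1 library. Against isoxaflutole, quizalofop-p-ethyl gave 38 calls, 25 with all 50 libraries, 55 with unnamed transcripts and 32 to 38 without 1 library; against mesotrione 42 calls became 30 with all 50 libraries and 52 with unnamed transcripts, and 36 to 46 without 1 library. The F test gave 42, 26 with all 50 libraries, 55 with unnamed transcripts, and 34 to 44 without 1 library. Over all features, all 50 libraries gave 4645, 80 and 26 calls for 1 mM quizalofop-p-ethyl, isoxaflutole and mesotrione, against 7926, 585 and 213. The 2 groups alone gave 280 for isoxaflutole and 89 for mesotrione, and the block 343 for mesotrione. Unnamed transcripts gave 8507, 880 and 365 for the 3 compounds, but over 19614 features in place of 24222. For quizalofop-p-ethyl against isoxaflutole, against mesotrione and for the F test, that setting called 7917, 8040 and 7952 features, against 7195, 7306 and 7068. The replicate block gave 50 calls at 1 mM quizalofop-p-ethyl, against 49. The labels do not say what a run of sample numbers is, and same-run libraries did not all deviate together: their correlations had a median of 0.0166 (12 of 216 pairs over 0.1), against -0.0051 between runs. Even so 26 of 49 libraries correlated best with their own run, a hint from the data that runs differ, and the median summed FPKM was 567520 in run 1, against 657343.5 to 687489 in runs 2 to 5. The means of the LINC genes had a median of 1.20 FPKM and a minimum of 0.177 FPKM. In the median library 1 fragment in a 1000-base transcript is worth 0.0716 FPKM. Low fragment numbers limit the precision of the values, most for the lowest genes.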
